A study of Mus musculus with 8 samples.

Results

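The genes of MHC class II antigen presentation were followed as a set of 9, taken by name from the 54532 genes of the count table: H2-Aa, H2-Ab1, H2-Eb1, Cd74, H2-DMa, H2-DMb1, H2-Oa, H2-Ob and Ciita. All 9 averaged 10 or more counts over the 8 libraries and entered the tests, which covered 16971 genes. RNAseq had been done on GFP+ (mG+) cells sorted from subcutaneous adipose tissue (SAT), visceral adipose tissue (VAT) and skeletal muscle of mice aged 8 months. KO mice were Tie2e-cre; TERTfl/fl; mTmG and WT mice were Tie2e-cre; TERT+/+; mTmG, so that Cre and the mTmG reporter were in both genotypes and only the floxed telomerase gene differed by label. The 4 pairs, each of 1 KO and 1 WT library, were SAT on high-fat diet (HFD), SAT on chow, VAT on chow and muscle on chow. The Tie2e promoter drives Cre in endothelial cells (EC), and GFP marks every descendant of a cell in which Cre was active. Tie2-driven Cre is known to act in blood-forming cells too, so the GFP+ gate does not by itself separate EC from leukocytes. How many mice gave each library is not given in the sources used here. Because every tissue and diet had a single library of each genotype, p-values measure the spread between these libraries only.

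MHC class II molecules are pairs of an alpha and a beta chain that carry peptides from the endosome to the cell surface and show them to CD4+ T cells. H2-Aa and H2-Ab1 encode the chains of the I-A molecule, and H2-Eb1 encodes the beta chain of I-E. The invariant chain, Cd74, holds the groove of new molecules closed and guides them to the endosome. There H2-DM, made of H2-DMa and an H2-DMb chain, swaps the remnant of the invariant chain for antigenic peptide, and H2-O, made of H2-Oa and H2-Ob, restrains H2-DM and is best known from B cells. Ciita, the class II transactivator, binds no DNA itself. It is recruited to these promoters by factors that sit on the S, X and Y boxes, the Y box being a CCAAT element bound by NF-Y. Dendritic cells, B cells and activated macrophages are the usual sources of class II; EC and other cells can make it under interferon gamma.

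The table places 7 of the 9 genes on chromosome 17, within 223.9 kb between positions 34092340 and 34316199 of GRCm38, in the order H2-Oa (34092340 to 34095234), H2-DMa (34135182 to 34139101), H2-DMb1 (34153072 to 34160230), H2-Ob (34238903 to 34245907), H2-Ab1 (34263209 to 34269418), H2-Aa (34282744 to 34287827) and H2-Eb1 (34305877 to 34316199). Ciita lies on chromosome 16 (10480059 to 10528418, plus strand), and Cd74 lies elsewhere in the genome. H2-Aa is the single minus-strand gene of the 7. All 9 are protein coding in the table.

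The promoter table made from RefSeq (GRCm38.p6) held windows for 6 members. Windows for H2-Ab1, Ciita and the invariant chain were not used here, and those of H2-DMa are not shown because their start sites lie 9664 and 12350 bases from the start of the gene in the count table. The stretches from 140 to 31 bases before the RefSeq start site are printed for 4 members because the shared control element of the family can be read in them. Each is written 5′ to 3′ on the gene's strand, with ATTGG or CCAAT, the core of the Y box on either strand, in capitals.
H2-Aa (chr17:34287854-34287963, minus strand): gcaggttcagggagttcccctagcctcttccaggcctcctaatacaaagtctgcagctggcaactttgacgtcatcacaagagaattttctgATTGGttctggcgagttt
H2-Eb1 (chr17:34305727-34305836, plus strand): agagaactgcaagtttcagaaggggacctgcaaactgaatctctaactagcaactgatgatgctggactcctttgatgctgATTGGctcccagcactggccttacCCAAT
H2-Oa (chr17:34092239-34092348, plus strand): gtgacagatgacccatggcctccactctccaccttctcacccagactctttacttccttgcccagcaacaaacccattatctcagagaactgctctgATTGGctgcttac
H2-Ob (chr17:34238765-34238874, plus strand): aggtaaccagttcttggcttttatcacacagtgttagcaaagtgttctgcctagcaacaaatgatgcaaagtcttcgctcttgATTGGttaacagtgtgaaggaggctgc

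The first base of ATTGG stood 48 bases before the start site in H2-Aa, 59 in H2-Eb1, 43 in H2-Oa, 57 in H2-Ob and 61 in H2-DMb1. ATTGG or its reverse CCAAT was thus present in the 250 bases before the start of all 5 members with a window at the gene, and in 33.8% of all 32851 promoter windows of the same length. The longer CTGATTGG, searched on both strands and overlapping ATTGG, was in 3 of the 5 (H2-Aa, H2-Eb1 and H2-Oa) and in 3.83% of all windows. Both genes of H2-O thus hold the core letters found in H2-Aa and H2-Eb1. For the paired genes H2-DMb1 and H2-DMb2, which encode alternative beta chains of H2-DM, 30 bases around the motif are shown because these copies are alike in sequence and differed in level between tissues.
H2-DMb1 (chr17:34153117-34153146, plus strand): gattcactcagtgATTGGtctgacctgcct
H2-DMb2 (chr17:34145146-34145175, plus strand): aagtcacttagtgATTGGactgacttaact
These 2 stretches differed at 7 of 30 bases, and the 250-base windows were 59.8% identical over 291 alignment columns. Gap columns count as differences in that share, and the windows are offset, with ATTGG 61 bases before the start in H2-DMb1 and 90 in H2-DMb2. The RefSeq start site used for H2-DMb2 lies 1942 bases from the start of that gene in the count table, and the one for H2-DMb1 119 bases.

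Library totals ran from 6214269 to 18855772 counts, so that 3 counts, taken as the detection floor, stood for 0.181 to 0.451 counts per 1000000 (CPM). Counts of Tert, the targeted gene, were 114 (WT) against 0 (KO) under HFD, 70 against 11 in the chow SAT pair, and 24 against 7 in the muscle pair. It had 3 counts in the VAT library labelled WT and 9 in the one labelled KO, which goes against the label, and VAT directions between genotypes are given for the libraries as labelled. All 10 endothelial markers were above the floor in every library. Their summed level was 310 to 595 CPM in SAT and 1478 to 2147 CPM in VAT and muscle. Markers of other cells were present too: summed over 9 macrophage markers the level was 205 to 854 CPM in the 6 SAT and muscle libraries and 9548 to 9622 CPM in VAT, over 8 B cell markers 1009 to 2521 CPM outside VAT and 142 to 144 CPM in VAT, and over 7 T cell markers 384 to 3178 CPM outside VAT and 182 to 247 CPM in VAT. The 7 neutrophil markers summed to 21228 and 25427 CPM in muscle and 45.1 to 255 CPM elsewhere. In every SAT library the B cell sum (1630 to 2521 CPM) and the T cell sum (1280 to 3178 CPM) were above the endothelial sum. Both were below it in VAT and muscle, and the lists differ in length. In these bulk libraries a change in the share of a cell type and a change in RNA per cell cannot be told apart.

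The 9 genes together took 0.438% to 2.34% of all counts. Cd74 alone gave 46.8% to 51.9% of the counts of the set, and it was the most abundant gene of all in both VAT libraries. Cd74 lies on the plus strand of chromosome 18 (60803848 to 60812646). Per kilobase of gene length, Cd74 was the highest member in all 8 libraries at 1500.0 to 9014 CPM per kb. H2-Eb1 was next at 477 to 3251 CPM per kb, also in all 8. H2-Ab1 (306 to 2057 CPM per kb) and H2-Aa (319 to 2193 CPM per kb) did not differ beyond their spread, H2-Ab1 being the higher in 3 of 8 libraries, with a mean log2 difference of 0.015 and an SD of 0.120. A step of 3.34 ± 0.308 on the log2 scale (mean ± SD, n = 8 libraries) separated H2-Aa from H2-DMa, so the chains that bind peptide lay well above the chains that load it. H2-DMa and H2-DMb1 (41.8 to 191 and 24.7 to 202 CPM per kb) changed places between libraries and so did H2-DMb1 and H2-Ob, each pair standing in the stated order in 5 of 8. H2-Ob was above H2-Oa in all 8, and Ciita was the lowest member in 7 of 8, at 7.52 to 23.8 CPM per kb.

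The classical chains were highest in VAT. With WT given before KO here and below, H2-Aa was at 1207 and 1076 CPM in SAT on HFD, 2713 and 1254 CPM for chow SAT, 4036 and 4109 CPM in VAT, and 1691 and 598 CPM in muscle. H2-Ab1 stood at 1187 and 1100.1, 2318 and 1083, 3368 and 3324, and 1484 and 501 CPM in the same order. H2-Eb1 stood at 1040.4 and 1042, 2312 and 1147, 3655 and 3849, and 1571 and 565 CPM. For each of these chains both VAT libraries lay above the other 6, and the muscle library labelled KO was the lowest.

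Cd74 and the genes of H2-DM ran with them. Cd74 was at 3824 and 3361 CPM in SAT on HFD, 8235 and 4452 CPM for chow SAT, 10742 and 12710.1 CPM in VAT, and 4828 and 2115 CPM in muscle. H2-DMa was at 116 and 111, 279.9 and 100.1, 291 and 313, and 105 and 68.6 CPM. H2-DMb1 was at 113 and 68.1, 148 and 89.9, 300.3 and 214, and 119.9 and 36.7 CPM. With the classical chains this made 6 of 9 members whose VAT libraries did not overlap the others and lay above them, against 15.2% of all genes tested.

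The genes of H2-O ran the other way. H2-Oa was at 39.6 and 33.0 CPM in SAT on HFD, 117 and 28.8 CPM for chow SAT, 13.5 and 18.6 CPM in VAT, and 34.6 and 19.6 CPM in muscle. H2-Ob was at 197 and 241, 294 and 262, 51.5 and 46.9, and 152 and 134 CPM. Both VAT libraries lay below the other 6 for these 2 members, as for 11.9% of all genes tested, although H2-Oa in the muscle library labelled KO (19.6 CPM) was close to VAT, KO (18.6 CPM). Ciita was at 139 and 153, 227 and 157, 111 and 98.6, and 91.9 and 71.7 CPM; its highest library was SAT on chow, WT, and its VAT libraries lay between SAT and muscle.

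**Figure D1:**
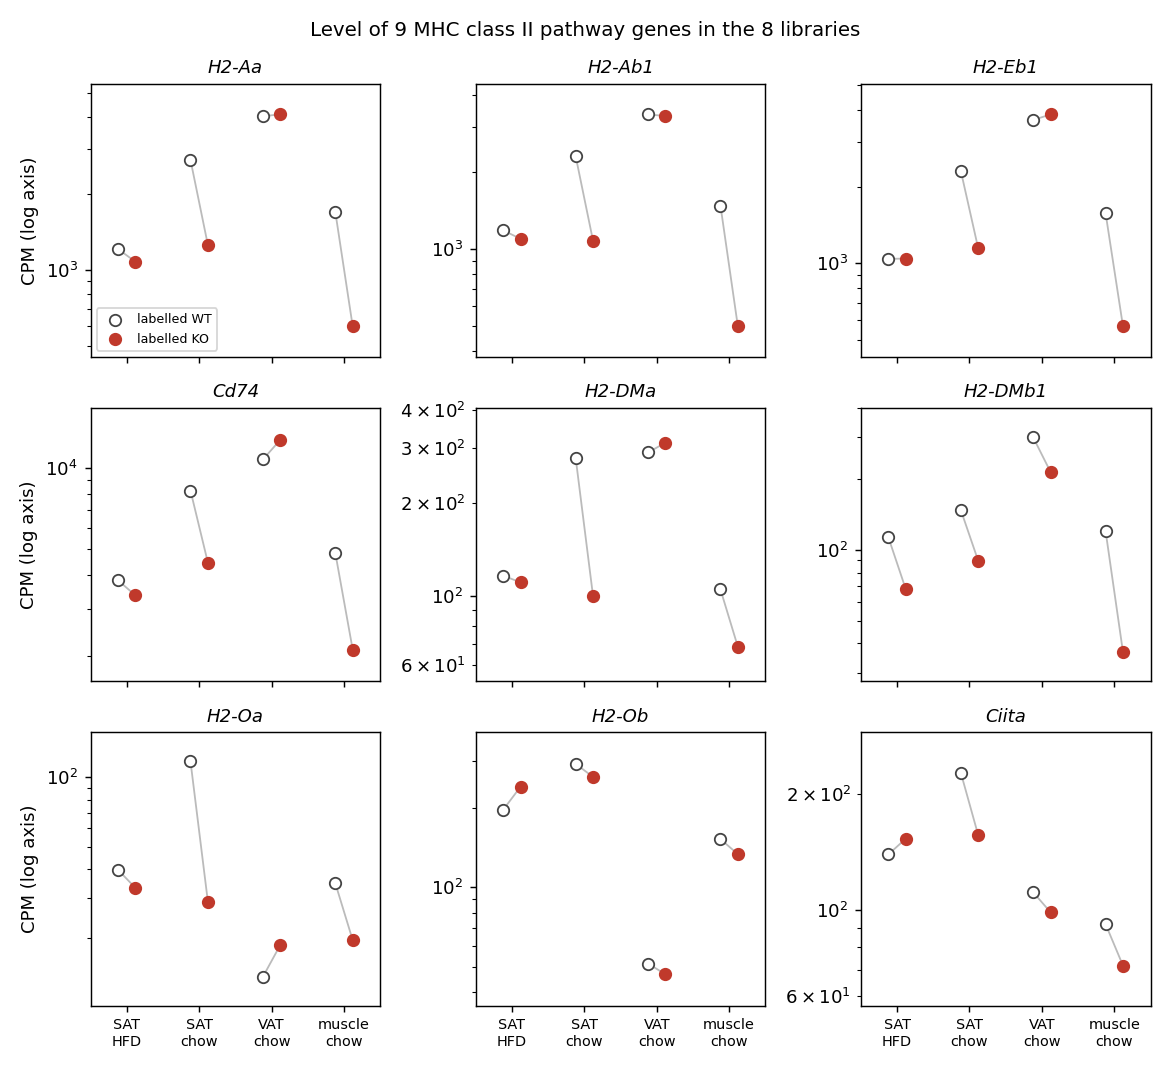
Level of each of the 9 genes (CPM, log axis, scaled by TMM) in the 4 tissue and diet pairs; each point is 1 library, open for WT and filled for KO as labelled, and a line joins a pair. H2-Aa, H2-Ab1, H2-Eb1, Cd74, H2-DMa and H2-DMb1 peak in VAT, while H2-Oa and H2-Ob are lowest there and Ciita peaks in SAT on chow, WT.

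Ratios within a library do not depend on the scaling between libraries. For every 100 counts of Cd74 there were 3.16 to 7.16 counts of H2-Ob in the 6 SAT and muscle libraries, and 0.479 and 0.369 in the VAT libraries labelled WT and KO. For every 100 counts of H2-DMa there were 105 to 262 counts of H2-Ob outside VAT and 17.7 and 15.0 in VAT. H2-Oa per 100 counts of H2-DMa was 28.5 to 42.0 outside VAT and 4.66 and 5.96 in VAT. Ciita per 100 counts of Cd74 was 1.90 to 4.56 outside VAT and 1.04 and 0.776 in VAT. The VAT libraries were thus the lowest for each of these ratios.

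Across the 8 libraries, log2 CPM of the classical chains, Cd74 and H2-DM correlated with each other at a Pearson's r of 0.884 to 0.998. H2-Ob correlated with those 6 at -0.613 to -0.511, and with H2-Oa at 0.757. Ciita correlated with Cd74 at 0.220 and with H2-Oa at 0.750. These values are descriptions over 8 libraries, of which the 2 VAT libraries stand apart.

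VAT and SAT on chow were compared in a fit across all genes (edgeR's quasi-likelihood test with genotype as a covariate, Benjamini-Hochberg adjustment over 16971 genes, 2 libraries per tissue). H2-Ob was lower in VAT (log2 fold change -2.50, SE 0.308, adjusted p = 0.00740) and was the 1 member called, where 5.05% of all genes were called, 3.31% higher and 1.74% lower. Unadjusted p-values were under 0.05 for 6 members and 20.3% of genes. H2-Oa was at -1.92 (SE 0.579, adjusted p = 0.112) and Ciita at -0.86 (SE 0.296, adjusted p = 0.154). H2-Aa, H2-Ab1, H2-Eb1, Cd74, H2-DMa and H2-DMb1 had positive values of 0.80 to 1.23, with SEs of 0.359 to 0.503 and adjusted p-values of 0.123 to 0.341, and did not pass. The median of the 9 was 0.98, beside -0.083 over all genes, but it mixes the directions of the groups, and it came to 0.52 without the VAT library labelled KO. The call of H2-Ob was lost with either VAT library left out (adjusted p = 0.0858 without WT and 0.0924 without KO). DESeq2's Wald test on the same counts called 7 members, all but H2-DMa and Ciita, beside 2305 of all 16971 genes.

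Muscle and VAT differed in the opposite sense. H2-DMb1 was lower in muscle (log2 fold change -1.89, SE 0.370, adjusted p = 0.0491) and H2-Ob was higher (1.54, SE 0.298, adjusted p = 0.0465), so that 2 of 9 members were called in edgeR's test beside 1.93% of all genes, 0.884% higher and 1.05% lower. Unadjusted p-values were under 0.05 for 7 members and 12.7% of genes. H2-Aa, H2-Ab1, H2-Eb1, Cd74 and H2-DMa had values of -2.00 to -1.86 and adjusted p-values of 0.0766 to 0.133, and H2-Oa and Ciita were at 0.61 and -0.37. Both calls sat at the threshold: with DESeq2's size factors in the same fit the adjusted p was 0.0503 for H2-DMb1 and 0.0510 for H2-Ob, and without any 1 of the 4 libraries neither gene was called. DESeq2's own test called 7 members, all but H2-Oa and Ciita, beside 1258 of all 16971 genes.

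Between muscle and SAT on chow all 9 values were below 0 (-1.31 to -0.74, median -0.89 beside -0.092 over all genes), and none was called in edgeR's test, beside 1.26% of all genes, 1.11% higher and 0.147% lower. The unadjusted p was under 0.05 for H2-DMa, H2-Oa, H2-Ob and Ciita, and for 11.5% of all genes. Ciita had the lowest (log2 fold change -1.22, SE 0.298, edgeR's adjusted p = 0.112). DESeq2's test called H2-Ob and Ciita, beside 1058 of all 16971 genes. The median came to -0.46 without the SAT library labelled WT and -1.08 without the SAT library labelled KO. It was -0.50 without the muscle library labelled KO and -1.41 without the muscle library labelled WT. All 9 values were below 0 each time.

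For HFD against chow in SAT, all 9 values were again below 0 (-0.83 to -0.34, median -0.63), as were 64.2% of all genes, whose median was -0.24. The median of the members came to -0.17 without the HFD library labelled WT, with 8 of 9 below 0, and to -0.19 without the chow library labelled WT, with 7 of 9 below 0. No member and no gene was called in edgeR's test (0% of all genes), and an unadjusted p under 0.05 was found for 7.98% of genes (1354) and no member. DESeq2's test called 260 genes and no member. For all 9 members the SAT chow library labelled WT stood above both HFD libraries, and the share of all genes with this order was not computed. In HFD, KO and chow, KO, H2-Ab1 was at 1100.1 and 1083 CPM and H2-Eb1 at 1042 and 1147 CPM. H2-Ob was at 241 and 262 CPM there, Ciita at 153 and 157 CPM, and Cd74 at 3361 and 4452 CPM. These KO libraries also differed in H2-Ea-ps, a gene of the class II locus described below.

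**Figure D2:**
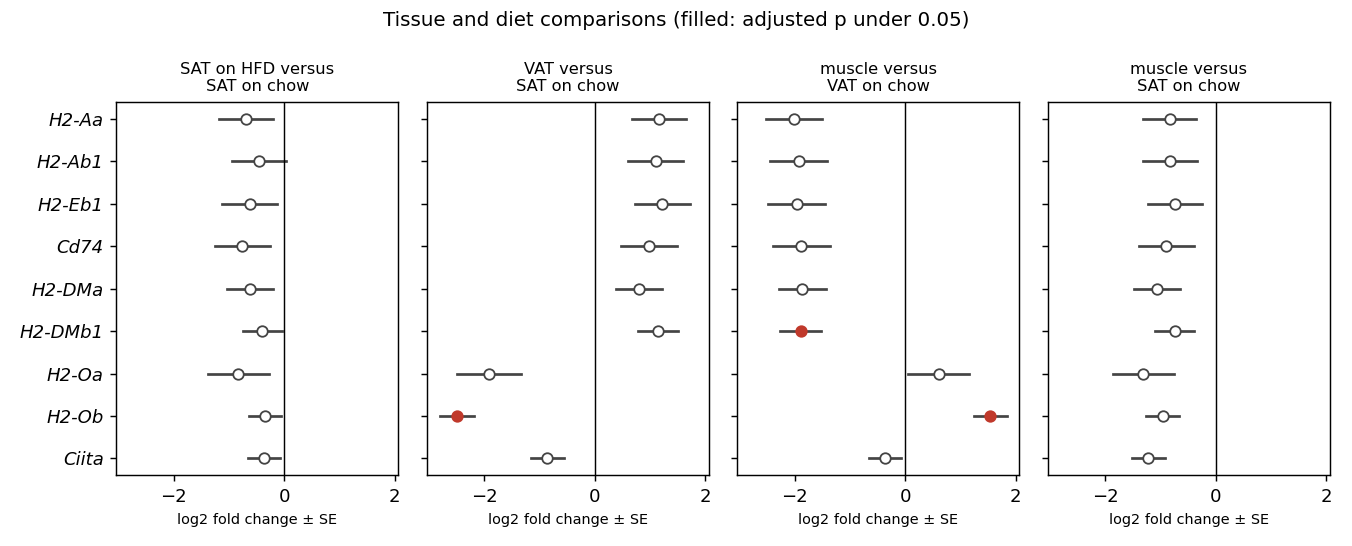
Log2 fold changes of the 9 genes in the 4 comparisons of tissue and diet (edgeR, 8 libraries; bars are ± 1 SE, filled points have an adjusted p under 0.05). H2-Ob is the filled point on the left of VAT versus SAT and, with H2-DMb1, one of 2 filled points in muscle versus VAT; every point of the outer panels lies below 0.

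KO and WT were compared across the 4 pairs with tissue and diet as a block. All 9 members had log2 fold changes below 0, from -0.91 to -0.050 with a median of -0.60, beside a median of 0.017 and 48.3% of values below 0 over all genes. With 1 pair left out the median ranged from -0.37 (without SAT on chow) to -0.82 (without VAT), and it was -0.42 without muscle. None was called in edgeR's test (0.00589% of all genes, which is 1 gene), and DESeq2's test called none of the 9 either. H2-DMb1 had the largest value (-0.91, SE 0.256, edgeR's adjusted p = 1.0) and was the single member with an unadjusted p under 0.05, as were 1.64% of all genes. It was lower in the KO library of 4 of 4 pairs, as was H2-Ab1; this held for 4.53% of all genes. The values of H2-Aa and H2-Ab1 were -0.69 (SE 0.351) and -0.70 (SE 0.353), and H2-Ob was nearest to 0 (-0.050, SE 0.206), with 0.071 when scaled by library totals.

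Within pairs, where each genotype is 1 library, ratios have counting error only and no replicate check. In the chow pairs the 2 libraries also differed in H2-Ea-ps, a gene of the class II locus described below. In SAT on chow all 9 intervals lay below 0, as for 40.3% of genes (40.9% lay above), and 4 members had the whole 95% interval beyond 2-fold lower, beside 11.7% of genes lower and 19% higher. These were H2-Oa (log2 ratio -2.03, 95% interval -2.18 to -1.88), H2-DMa (-1.48), H2-Aa (-1.11) and H2-Ab1 (-1.10). Under each of the 3 other scalings 2 members were beyond 2-fold lower, and H2-Aa and H2-Ab1 came to -0.88 and -0.87 with library totals. H2-Ob had the value nearest to 0 there (-0.17, -0.22 to -0.11), and came to 0.068 with library totals. In muscle all 9 intervals again lay below 0, as for 29.4% of genes (26.7% lay above), and 5 members were beyond 2-fold lower, beside 2.05% of genes lower and 2.75% higher. These were H2-DMb1 (-1.71, -1.85 to -1.57), H2-Ab1 (-1.57), H2-Aa (-1.50), H2-Eb1 (-1.48) and Cd74 (-1.19). H2-Ob was again nearest to 0 (-0.19, -0.28 to -0.10).

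The other 2 pairs did not show this. In SAT on HFD no member was beyond 2-fold in either direction, beside 11.1% of genes lower and 12.7% higher. The intervals of 5 members lay below 0, as for 34.3% of genes, and those of H2-Ob (0.29, 0.20 to 0.39) and Ciita (0.14, 0.022 to 0.25) above it, as for 38.3%, and the largest shift was that of H2-DMb1 (-0.73, -0.87 to -0.59). In VAT, as labelled, none was beyond 2-fold, beside 2.09% of genes lower and 2.4% higher. The intervals of 5 members lay above 0, as for 26.6% of genes, and those of H2-DMb1 and Ciita below it, as for 24.7%. Cd74 (0.24, 0.23 to 0.25) and H2-Oa (0.46, 0.14 to 0.78) were the highest there and H2-DMb1 the lowest (-0.49, -0.56 to -0.41). H2-Aa (0.026), H2-Ab1 (-0.019) and H2-Eb1 (0.074) lay close to 0, and H2-Aa came to -0.017 with DESeq2's size factors. Markers of other cells differed within the same pairs. Stromal markers, summed over 7 genes, were higher in KO, opposite to the members, in SAT on chow (709 CPM in WT and 3211 in KO) and muscle (570.0 and 1232 CPM), and were higher in KO in VAT as well (952 and 2161 CPM). In SAT on HFD the stromal sums were 1998 and 2044 CPM. Macrophage markers were lower in KO in SAT on chow (854 and 451 CPM) and muscle (697 and 332 CPM) and nearly equal in VAT (9622 and 9548 CPM). They were lower in KO in SAT on HFD too (328 and 205 CPM), where the median of the members was -0.11. T cell markers were lower in KO in SAT on chow and muscle (3178 and 1280 CPM, then 583 and 384 CPM). In SAT on HFD and VAT T cell markers were higher in KO (1519 and 1707 CPM, then 182 and 247 CPM). Dendritic cell markers, summed over 8 genes, were at 374 and 217 CPM in SAT on chow, 222 and 158 CPM in muscle, 563 and 567 CPM in VAT and 185 and 177 CPM in SAT on HFD. In SAT on chow 6 of these 8 had intervals below 0, while Zbtb46 (1.01) and Clec9a (0.35), named after their values were seen, lay above it. B cell markers, summed over 8 genes, were at 2521 and 1791 CPM in SAT on chow and 1094 and 1009 CPM in muscle. They were at 142 and 144 CPM in VAT and 1630 and 1663 CPM in SAT on HFD. Endothelial sums in the same order of pairs were 508 and 595, 1814 and 2147, 2009 and 1478, and 310 and 342 CPM. The part of these cell types in the ratios was not tested.

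**Figure D3:**
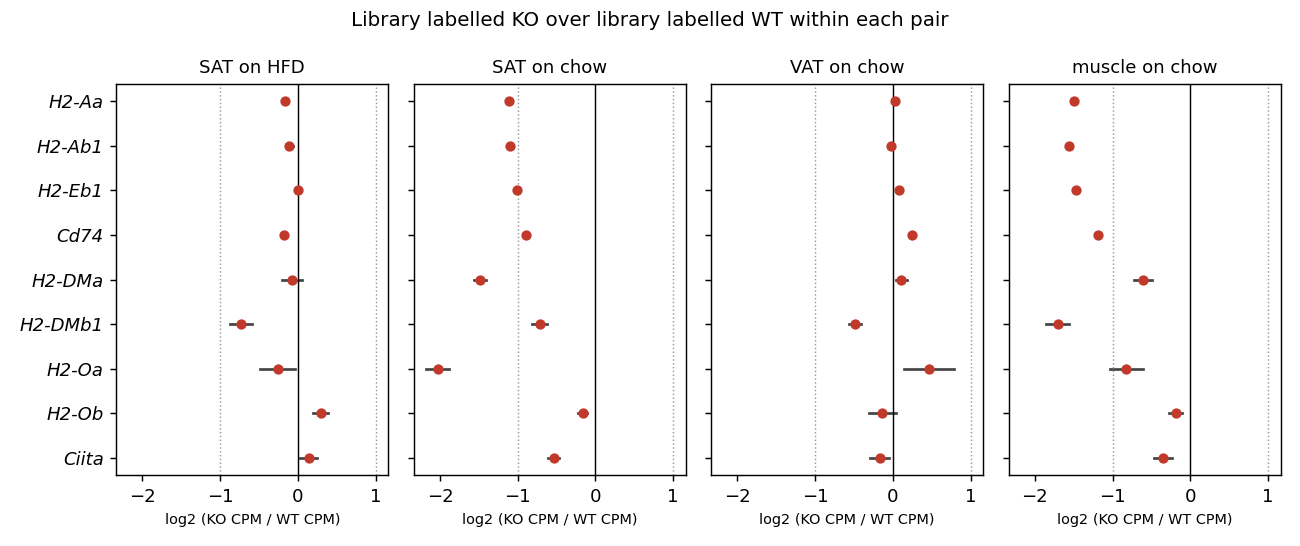
Log2 ratio of the library labelled KO over the library labelled WT within each pair, with the exact 95% counting interval (bars) and dotted lines at 2-fold. All 9 genes lie below 0 in SAT on chow and in muscle, with H2-Ob closest to 0; in VAT and in SAT on HFD no gene lies beyond a dotted line.

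Neighbouring class II genes outside the set of 9 gave further contrasts. H2-DMb2 was at 161 and 156 CPM in SAT on HFD, 302 and 185 for chow SAT, 33.9 and 70.8 in VAT, and 118 and 96.4 in muscle. It was lower in VAT than in SAT (log2 fold change -2.21, SE 0.447, edgeR's adjusted p = 0.0332), where H2-DMb1 was at 1.15 (adjusted p = 0.123). The call was lost without the SAT library labelled WT (adjusted p = 0.0679) and without either VAT library. H2-DMb1 therefore made up 89.8% (95% binomial interval 88.7 to 90.9, Clopper-Pearson) and 75.1% (73.7 to 76.5) of the counts of both DMb genes in VAT, WT and KO. The share of H2-DMb1 was 41.2% and 30.4% in SAT on HFD, 32.8% and 32.7% in SAT on chow, and 50.4% and 27.6% in muscle. Within the VAT pair H2-DMb2 had a log2 ratio of 1.06 (0.87 to 1.25). Of the 50-base stretches of H2-DMb1 transcripts in GENCODE M21, 22.7% also occur in transcripts of H2-DMb2, so reads from the shared stretches may have been split or dropped in counting.

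H2-Eb2, an E beta paralogue, was at 8.88 and 53.4 CPM in SAT on HFD, 72.2 and 43.3 for chow SAT, 4.70 and 1.18 in VAT, and 29.8 and 13.3 in muscle. Its value in VAT against SAT was -4.38 (SE 1.01, edgeR's adjusted p = 0.0507). Within pairs its log2 ratio of KO over WT was 2.58 (2.20 to 3.0) in SAT on HFD, the reverse of its values in SAT on chow (-0.74), VAT (-1.96) and muscle (-1.16). H2-Pa, a pseudogene, had 4 counts in 1 library and none in the other 7.

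H2-Ea-ps, the I-E alpha gene, is a pseudogene in the C57BL/6 reference, where the promoter is deleted, and is intact and paired with H2-Eb1 in some other mouse strains. It had no count in either library of SAT on HFD. In the chow pairs, WT then KO, it had 0 and 5496 counts in SAT, 7 and 14205 in VAT, and 3 and 2291 in muscle. In SAT on chow this was at least 1826-fold higher in KO when the WT library is set at the floor of 3 counts, and the exact 95% interval of the ratio began at 1485-fold. It was the 1 gene called between KO and WT in edgeR's test (log2 fold change 10.75, SE 0.672, adjusted p = 0.0173). The call was lost without the VAT pair (adjusted p = 0.0502) and without the block (adjusted p = 1.0). Set against H2-Eb1 in the same library, the ratio was almost the same in all 3 chow KO libraries: 28.9 counts per 100 of H2-Eb1 in SAT (95% interval 28.0 to 29.8), 27.2 for VAT (26.7 to 27.7) and 29.4 for muscle (28.1 to 30.8), although H2-Eb1 itself ranged from 565 to 3849 CPM among them. In the other 5 libraries the observed value was at most 0.0214 per 100. The KO library of SAT on HFD, with 13167 counts of H2-Eb1 and none of H2-Ea-ps, was unlike the other KO libraries. The floor of 3 counts would stand for 0.0228 per 100 there, and the exact 95% interval reached 0.0280 per 100. The class II haplotype of each mouse is not given in the labels. For the members on chromosome 17, the Tert genotype and a difference at the class II locus cannot be told apart within the chow pairs. The KO against WT fit joins the 3 chow pairs with SAT on HFD, where H2-Ea-ps had no count. In SAT, HFD against chow likewise includes the chow library labelled KO, with its 5496 counts, and how this affected the values was not tested.

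**Figure D4:**
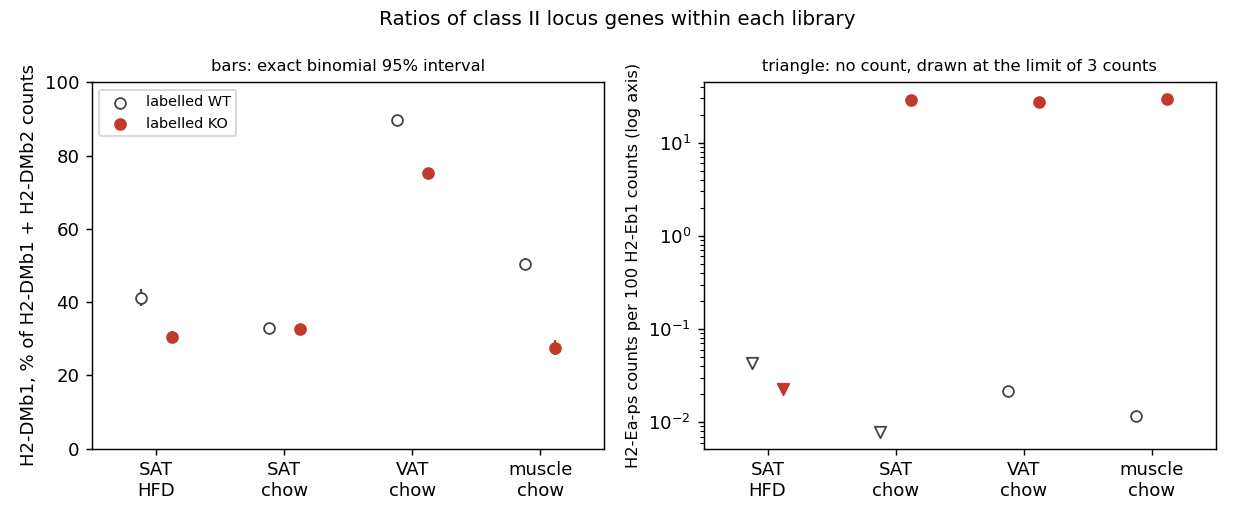
Left, share of H2-DMb1 in the counts of H2-DMb1 and H2-DMb2 (%, bars are exact 95% intervals); right, counts of H2-Ea-ps per 100 counts of H2-Eb1 (log axis, triangles mark libraries with no count, drawn at the limit of 3 counts). The share of H2-DMb1 is highest in VAT, and H2-Ea-ps stands at 27.2 to 29.4 per 100 in the 3 chow KO libraries and at most 0.0214, or undetected, elsewhere.

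Of the factors that act on class II genes, none of 7 promoter-binding factors (Rfx5, Rfxap, Rfxank, Nfya, Nfyb, Nfyc and Creb1) was called in any comparison in edgeR's test. Their medians were -0.70 in VAT against SAT and -0.015 in KO against WT. The most abundant were Creb1 (85.9 to 158 CPM), Nfya (84.3 to 170.3 CPM) and Nfyc (27.2 to 63.5 CPM). None of 9 genes of the interferon gamma input was called either; Jak1 was at 538 to 1079 CPM, Ifngr1 at 212 to 458 CPM and Irf1, a direct activator of Ciita, at 176 to 313 CPM. The 3 repressors of Ciita gave no call and ran in different directions. Dnmt1, a DNA methyltransferase, was at 73.4 and 63.9 CPM in VAT and 102 to 204 CPM elsewhere. Ezh2, a histone methyltransferase, was at 32.4 and 37.6 CPM in VAT and 19.4 to 77.4 CPM elsewhere. Prdm1, which encodes Blimp-1, was at 48.3 and 55.8 CPM in VAT and 6.83 to 27.2 CPM elsewhere.

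The list of endosomal processing held 9 genes, among them proteases that cut antigen and the invariant chain. Of the 9, 3 rose in VAT over SAT in edgeR's test, as did 3.31% of all genes, and none fell. These were Ctsb (log2 fold change 2.72, SE 0.410, adjusted p = 0.0135) and, named after their values were seen, Lgmn (2.77, adjusted p = 0.0137) and Ctsl (1.70, adjusted p = 0.0350). Ctsb was at 3240 and 3076 CPM in VAT and 266 to 667 CPM elsewhere. Ctss, the protease that trims the invariant chain in professional antigen-presenting cells, was at 584 and 721 CPM in VAT and 198 to 622 CPM elsewhere. Ctsd, an aspartic protease, was at 643 and 717 CPM in VAT and 115 to 348 CPM elsewhere. Ctsb and Lgmn fell in muscle against VAT (-2.58 and -2.84, adjusted p = 0.0225 and 0.0186). No gene of the list was called between KO and WT, where its median was -0.41. Within pairs 8 of the 9 intervals lay below 0 in SAT on chow (median -0.91, beside 40.3% of all genes) and 8 in muscle (median -0.44, beside 29.4%), while 6 lay above 0 in VAT (median 0.16, beside 26.6%). Of 6 genes of class II turnover and costimulation, March8, which encodes a ubiquitin ligase of class II and was named after its values were seen, rose in VAT over SAT (2.43, SE 0.479, adjusted p = 0.0308). Cd40, likewise named afterwards, fell in muscle against VAT (-1.67, adjusted p = 0.0484). The most abundant of this list, Cd83, which shields class II from that ligase, was at 1029 and 1222 CPM in VAT and 134 to 657 CPM elsewhere, with the lowest level in SAT on chow, WT. Cd86, a costimulatory ligand, was at 222 and 161 CPM in VAT and 21.4 to 72.9 CPM elsewhere, and March1, which encodes another ubiquitin ligase of class II, at 62.7 and 71.3 CPM in VAT and 27.9 to 56.5 CPM elsewhere.

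The members differed in which marker sums they followed over the 8 libraries. The summed B cell markers, with none at 0 in any library, were related to H2-Ob at a Pearson's r of 0.988 on log2 values, to H2-Oa at 0.752, to Ciita at 0.510 and to the other 6 members at -0.681 to -0.577. T cell markers, which share the low VAT levels, were related to H2-Ob at 0.929 and to Ciita at 0.807. Dendritic cell markers were related to Cd74 at 0.971, to H2-Aa at 0.964, to Ciita at 0.086, to H2-Oa at -0.180 and to H2-Ob at -0.693. These 8 markers differed among themselves. In VAT the largest were Cd209a (256 and 250 CPM) and Itgax (138 and 130 CPM). In VAT against SAT on chow their median log2 fold change was 0.67, with Cd209a highest at 2.56. Siglech (-0.76) and Xcr1 (-0.48), named after their values were seen, lay below 0 there. Macrophage markers were related to Cd74 at 0.889, to Ciita at -0.207, to H2-Oa at -0.445 and to H2-Ob at -0.871, and endothelial markers to Cd74 at 0.211, to H2-Ob at -0.708 and to Ciita at -0.792. All these points share their libraries and their scaling, and the part of each cell type in the levels was not tested. Batf3, a dendritic cell marker, was at 0 in SAT on HFD, KO.

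**Figure D5:**
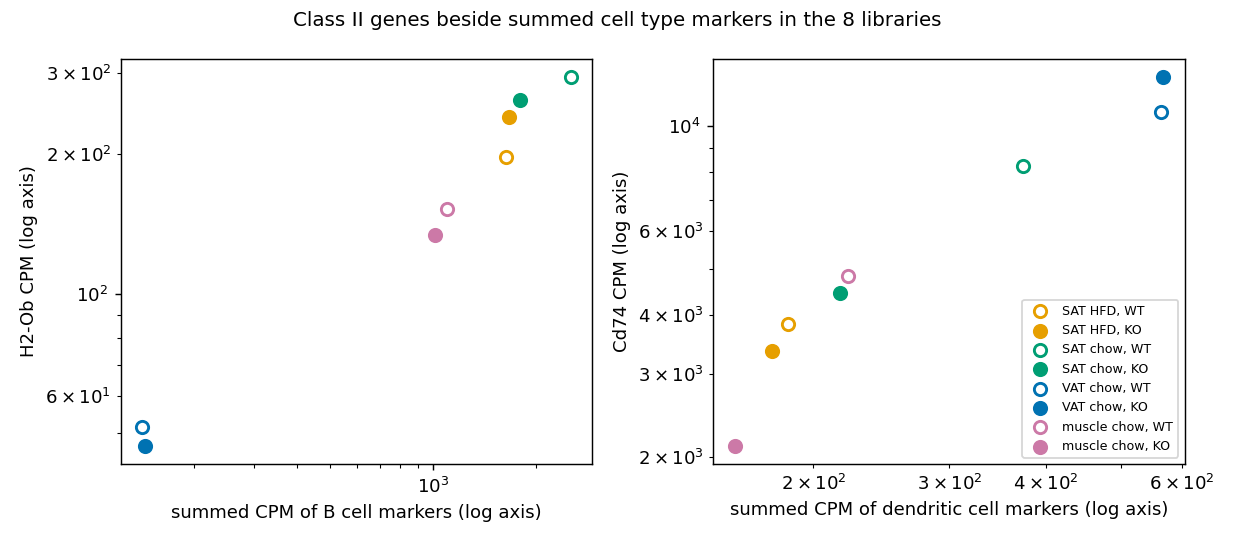
H2-Ob beside the summed level of 8 B cell markers (left) and Cd74 beside the summed level of 8 dendritic cell markers (right), in CPM on log axes; each point is 1 library, coloured by tissue and diet, open for WT and filled for KO as labelled. Both VAT libraries are at the low end on the left (142 to 144 CPM of B cell markers) and at the high end on the right (563 and 567 CPM of dendritic cell markers). The largest dendritic cell marker in VAT is Cd209a (256 and 250 CPM), and the 8 do not all run alike.

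Among 12359 other genes averaging 50 counts or more, the 10 most like the mean log2 CPM of H2-Aa, H2-Ab1, H2-Eb1 and Cd74 over the 8 libraries were Cyp4v3, Itgax, Rad23b, Cyth4, Cxcl9, Gcsh, Cyp4f16, Batf, Prdx1 and Itm2c (Pearson's r of 0.940 to 0.965). Itgax, which encodes CD11c and is also one of the dendritic cell markers, ranged from 36.6 to 138 CPM. Cxcl9, a chemokine induced by interferon gamma, ranged from 5.0 to 30.9 CPM with the same order of libraries as these genes' mean (Spearman's rho 1). The 5 most like Ciita were Ddx24, Tnip1, Stn1, Lbh and Slc25a22 (r of 0.968 to 0.989).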

How the data were processed

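The authors deposited 1 table of raw read counts per gene for the 8 libraries. HISAT2 2.0.5 and GRCm38/mm10 are named in the submitters' processing notes; the counter, annotation release and use of strand are not given in the sources used here. Reads were thus aligned to the C57BL/6J sequence, and class II genes vary between strains; how this affected counts was not tested. The opposite strand of H2-Oa, Ciita and H2-Eb1 carries BC051537, Dexi and Gm20513, whose reads cannot be told apart without strand. H2-Ea-ps is an unprocessed pseudogene in the table.

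Counts were scaled by TMM (factors 0.877 to 1.14) and genes averaging 10 or more counts were fitted by edgeR 4.0.16 (glmQLFit, robust; tissue and diet plus genotype, 3 residual degrees of freedom; R 4.3.3) with Benjamini-Hochberg adjustment at 0.05. Within a pair, log2 ratios used a prior count of 0.5 and the exact conditional binomial 95% interval, which like the floor of 3 counts covers counting error only. Scripts were tested on simulated data. DESeq2 1.42.0, other scalings, filters and designs, and left-out libraries were alternatives. Pairs come from the labels (same tissue and diet). Deviations from genotype means correlated at 0.253 in SAT on HFD, 0.057 in SAT on chow, 0.560 in VAT and 0.516 in muscle. Between libraries of different pairs they correlated at -0.333 to 0.174, so the value of SAT on chow lay within that range. Samples were grouped from their labels alone.

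The members and gene lists were chosen with earlier results of these data known. Named besides the members were the other class II locus genes, the 3 most abundant genes of each further list, any list gene called between KO and WT, and the genes most alike in pattern. March1 and March8 are altered to dates in the table and were matched by identifier. Promoters are from RefSeq (GRCm38.p6). No column of the table was left out for want of a label.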

Additional observations from a re-analysis of the deposited data

Results flagged for a closer look

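For 7 of the 9 genes the ratio of KO over WT had its counting interval above 0 in 1 pair and below 0 in another; each pair holds 1 library per genotype and the difference between pairs was not tested. In VAT, as labelled, the log2 ratio was 0.026 for H2-Aa, 0.074 for H2-Eb1, 0.24 for Cd74, 0.11 for H2-DMa and 0.46 for H2-Oa. The lowest values of H2-Aa, H2-Eb1 and Cd74 were in muscle (-1.50, -1.48 and -1.19), and those of H2-DMa and H2-Oa in SAT on chow (-1.48 and -2.03). In SAT on HFD the ratio was 0.29 for H2-Ob and 0.14 for Ciita, whose lowest values were -0.19 in muscle and -0.54 in SAT on chow. The sign of H2-Aa in VAT changed with DESeq2's size factors, and the few counts of Tert in VAT (3 in WT and 9 in KO) do not bear out the labels.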

How the results depend on the processing

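Of the members' values in the 5 fitted comparisons under all alternatives, 449 kept their direction and side of the threshold, 27 came to pass it, 14 ceased to pass it and 5 changed sign. The number of members called was 0 in every setting for KO against WT and for HFD against chow. The fit without the tissue block changed none of these calls for the members. VAT against SAT, with 1 member called, gave 2 with all genes that have a count, 7 with DESeq2's Wald test, and 0 to 3 with 1 library left out. Muscle against VAT, with 2 called, gave 0 with DESeq2's size factors, 1 with library totals, 1 without the genotype term, 7 with all genes that have a count, 7 with DESeq2's Wald test, and 0 with any library left out. Muscle against SAT, with none called, gave 1 with all genes that have a count, 2 with DESeq2's Wald test, and 0 to 4 with a library left out. A lone library was assumed to vary like the other groups.

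Over all genes, calls between KO and WT numbered 1, but 42 with all genes that have a count, 19 with DESeq2's Wald test, 0 without the block and 0 to 2 with a pair left out. For HFD against chow they numbered 0, but 317 and 260 under those tests, and 308 without the SAT chow library labelled KO. For VAT against SAT they ranged from 93 to 3449 (857 as reported), for muscle against VAT from 41 to 1258 and for muscle against SAT from 37 to 1761.

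Median log2 ratios of the members within pairs were -0.022 with library totals in SAT on HFD. In SAT on chow they were -0.90 with DESeq2's size factors, -0.78 with library totals and -0.91 with upper quartile scaling, where 2 members, not 4, were beyond 2-fold lower; library totals shift every gene there by 0.233. In VAT they were -0.017 with DESeq2's size factors, a change of sign that is also the value of H2-Aa, and 0.0014 with upper quartile scaling. In muscle they were -1.15, -1.02 and -1.12 under these 3 scalings. With library totals H2-Ob came to 0.071 in KO against WT and 0.068 within SAT on chow. In HFD against chow, leaving out 1 library gave H2-Ab1 -0.89 to 0.032 (highest without the HFD library labelled WT), H2-DMa -1.20 to 0.16 and H2-Oa -1.58 to 0.29 (both highest without the chow library labelled WT). In muscle against VAT, H2-Oa gave -0.036 (without the VAT library labelled WT) to 1.47. The cause of these changes was not tested. Depth did not limit the members, which had 121 counts or more in every library.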
